A study of Mus musculus with 4 samples.

Results

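The interferon-induced transmembrane (Ifitm) genes Ifitm1, Ifitm2, Ifitm3 and Ifitm5 were followed across the stromal cell types of mouse bone marrow. They are 4 of the 27998 genes in the count matrices, chosen by name because their levels by type were already known from these data, so the levels by type are given as a description and carry no test. Single cells came from crushed, collagenase-treated femora and tibiae of C57BL/6 mice, sorted as CD140a+ CD51+ cells without CD45, CD31 or TER119. The NHD13Tg library came from mice with the Nup98-HoxD13 fusion, a model of myelodysplastic syndrome (MDS, a clonal disorder with ineffective blood formation), and was set against WT_A1, a wild-type library. For Abcg2-MDS/AML the cells came from the second MDS model of the study, named for Abcg2, and were set against Control, also wild type. Each group is 1 library, so differences within a pair have no replicate check. All intervals are exact 95% intervals and cover counting error only. The promoter or cell type behind either model, the number of mice in a library and their age are not stated in the labels.

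IFITM proteins are small membrane proteins. IFITM1, IFITM2 and IFITM3 sit in the plasma membrane or in endosomes and restrict the entry of enveloped viruses by hindering membrane fusion, and IFITM3 is the best known of them. Transcription of these genes is raised by type I and type II interferon, although many cells, among them stem and stromal cells, express them without added interferon. IFITM5, also called BRIL, is a bone-restricted member made by osteoblasts, is not regarded as interferon-responsive, and carries the mutation behind type V osteogenesis imperfecta in humans.

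The genes lie together on mouse chromosome 7. By Ensembl ID they match GENCODE M21 (GRCm38) as Ifitm5 at chr7:140948958-140950291 on the minus strand, Ifitm2 at chr7:140954837-140955987 on the minus strand, Ifitm1 at chr7:140967221-140969825 on the plus strand and Ifitm3 at chr7:141009586-141010770 on the minus strand. Together they span 61.8 kb. Their promoters are shown because the family contains interferon-responsive and bone-restricted members. The RefSeq sequences (GRCm38.p6) run 5′ to 3′ on the gene's strand, from 250 bases before to 50 after the start, and capitals mark matches to the motifs named after them.
Ifitm3, chr7:141010695-141010994, minus strand: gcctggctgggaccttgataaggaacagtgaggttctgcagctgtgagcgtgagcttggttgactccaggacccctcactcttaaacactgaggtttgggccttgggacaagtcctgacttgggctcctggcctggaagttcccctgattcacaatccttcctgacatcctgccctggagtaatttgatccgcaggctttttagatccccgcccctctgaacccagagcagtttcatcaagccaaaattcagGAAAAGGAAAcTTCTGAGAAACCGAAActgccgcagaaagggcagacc
Ifitm2, chr7:140955912-140956211, minus strand: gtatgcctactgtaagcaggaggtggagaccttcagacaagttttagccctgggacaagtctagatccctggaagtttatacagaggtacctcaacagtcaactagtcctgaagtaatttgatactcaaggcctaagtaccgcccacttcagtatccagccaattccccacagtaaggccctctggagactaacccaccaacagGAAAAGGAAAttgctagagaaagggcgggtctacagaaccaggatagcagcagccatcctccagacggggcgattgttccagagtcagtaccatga
Ifitm1, chr7:140967826-140968125, plus strand: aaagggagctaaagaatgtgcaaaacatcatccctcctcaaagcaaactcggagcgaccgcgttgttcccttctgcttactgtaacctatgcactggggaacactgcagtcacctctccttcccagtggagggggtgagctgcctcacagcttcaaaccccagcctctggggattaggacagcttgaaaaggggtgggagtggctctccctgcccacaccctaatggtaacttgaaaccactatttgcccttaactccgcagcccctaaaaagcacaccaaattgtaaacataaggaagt
Ifitm5, chr7:140950194-140950493, minus strand: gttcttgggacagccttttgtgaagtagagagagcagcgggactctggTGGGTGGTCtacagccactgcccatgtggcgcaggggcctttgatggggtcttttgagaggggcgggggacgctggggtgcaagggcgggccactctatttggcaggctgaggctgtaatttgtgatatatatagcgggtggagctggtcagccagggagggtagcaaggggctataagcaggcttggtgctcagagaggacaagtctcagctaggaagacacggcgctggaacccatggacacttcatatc

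Both strands were searched for GAAA, any 2 bases and GAAA again, the core of the interferon-stimulated response element, and for TTCNNNGAA, the core of the gamma-activated site. The Ifitm3 window holds 2 matches to the GAAA repeat, at bases 3 to 12 and 20 to 29 after the start, and 1 match to TTCNNNGAA that lies between and overlaps the second of them. The Ifitm2 window holds 1 match to the GAAA repeat, at -46 to -37. The Ifitm1 and Ifitm5 windows hold neither. The Ifitm1 window lies at the start of its shorter transcripts, and the upstream start of its longest transcript was not searched. The GAAA repeat occurs in 3.44% of the 32851 mouse promoter windows of this length, at least 2 matches occur in 0.225%, and TTCNNNGAA occurs in 8.30%. The Ifitm5 window holds TGGGTGGTC, the reverse complement of the GLI factor consensus GACCACCCA, at -202 to -194. That motif was searched after the sequence had been read, and it occurs in 0.253% of windows. These are letter matches and not shown sites.

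A barcode was taken as a cell with at least 2000 UMIs (unique molecular identifiers, each counting 1 captured transcript), at least 500 genes and at most 10% mitochondrial UMIs. This gave 5766 cells in NHD13Tg, 4973 in WT_A1, 5586 in Abcg2-MDS/AML and 5158 in Control, with median depths between 4186 and 5452 UMIs. Cell types were gates on marker UMIs per 10000 UMIs of the cell (u). They were Adipoq+Lepr+Esm1 of at least 10 u for MSC (mesenchymal stromal cells), Dpt+Clec3b+Col14a1 of at least 8 u for fibroblasts, Thbs4+Myoc of at least 30 u for tendon cells, Bglap+Bglap2 of at least 100 u for osteoblasts and Col9a1+Col9a2+Col9a3 of at least 15 u for chondrocytes. Levels are UMIs summed over the cells of a gate and scaled to CPM, the usual count per 1000000 summed UMIs. The MSC gate held 1902 cells in NHD13Tg, 694 in WT_A1, 189 in Abcg2-MDS/AML and 431 in Control, and the fibroblast gate held 1796, 2102, 668 and 367 cells of the same libraries. The tendon gate held 1152, 1290, 1105 and 651 of them. Osteoblasts numbered 145 in NHD13Tg, 109 in WT_A1, 8 in Abcg2-MDS/AML and 69 in Control, and chondrocytes 6, 4, 832 and 1048. Gates under 50 cells were not compared, although their sums enter the ranking of like genes. Gates overlap, and 635 of the 1152 tendon cells of NHD13Tg and 767 of the 1290 of WT_A1 were also fibroblast-gate cells, against 125 of 1105 in Abcg2-MDS/AML and 125 of 651 in Control, so the fibroblast and tendon values of the NHD13Tg pair share many cells. In all, between 2.90% and 16.5% of the cells of a library met more than 1. Any 2 libraries shared 6 to 14 cell barcodes. Xist, an X-linked transcript, had 1 UMI in NHD13Tg and 6 in WT_A1, against 29418 in Abcg2-MDS/AML and 28112 in Control. The Y-linked Ddx3y had 3567, 3241, 0 and 0 UMIs in the same libraries. Libraries of different pairs thus also differ in sex-linked transcripts.

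The gates were checked against markers they do not use, counting those at least 2-fold above all other cells of the library. MSC had 7 of 7 such markers (among them Cxcl12 and Kitl) in 3 libraries and 6 of 7 in Abcg2-MDS/AML, and osteoblasts had 5 to 6 of 7 in the 3 libraries compared. Fibroblasts had 5 or 6 of 6, chondrocytes 6 of 7 in both libraries compared, and tendon cells 3 to 5 of 6, so the tendon name rests mostly on its gate. The MSC gate of Abcg2-MDS/AML stands apart. Adipoq, the adiponectin gene that marks marrow adipogenic stroma, had a UMI in 30.7% of its cells, against 97.0% in Control, 93.1% in NHD13Tg and 83.3% in WT_A1. The 7 MSC markers summed to 6767 CPM in Abcg2-MDS/AML and 28706 CPM in Control.

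Ifitm3, the endosomal antiviral member, was the most graded of the 4 genes across types. It stood in MSC at 2343 CPM in NHD13Tg, 2503 CPM in WT_A1, 1984 CPM in Abcg2-MDS/AML and 2831 CPM in Control. In fibroblasts it stood at 2008, 1599, 1361 and 1141 CPM in the same libraries, and in tendon cells at 1552, 1283, 571 and 359.8 CPM. Osteoblasts had 232 CPM in NHD13Tg, 229 CPM in WT_A1 and 175 CPM in Control, and chondrocytes had 28.3 CPM in Abcg2-MDS/AML and 27.7 CPM in Control. The order MSC, fibroblast, tendon, then osteoblast or chondrocyte held in each library, and no interval of a ratio between neighbours in that order included 1. The closest neighbours were MSC over fibroblasts in NHD13Tg, at 1.17-fold (1.15 to 1.19). The widest step was MSC over chondrocytes, at 70.0-fold (61.3 to 80.3) in Abcg2-MDS/AML and 102-fold (89.5 to 117) in Control.

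**Figure D1:**
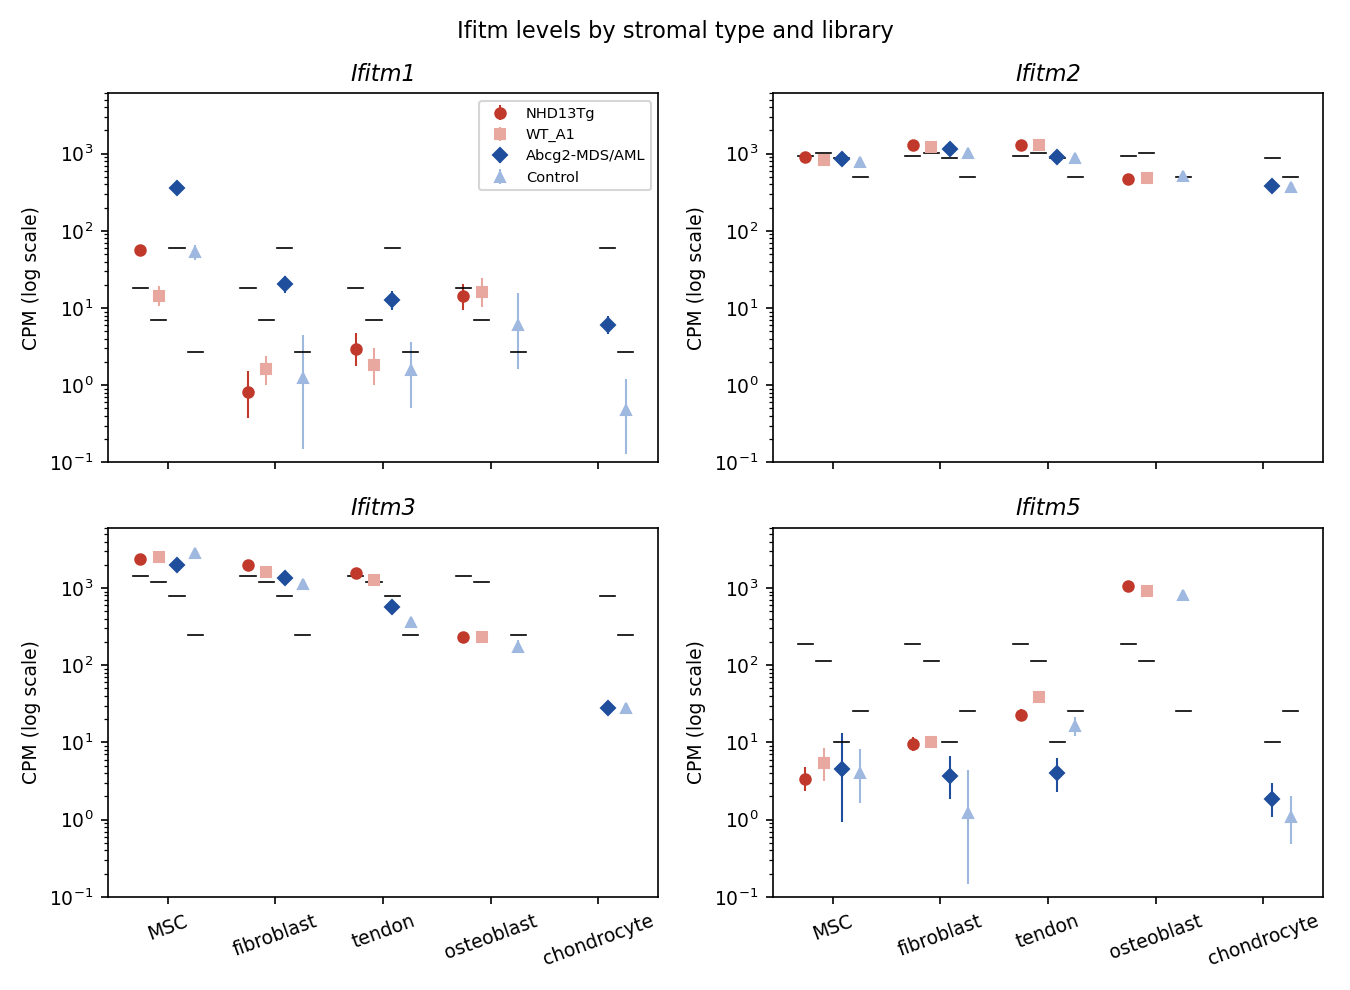
CPM on a log axis of Ifitm1, Ifitm2, Ifitm3 and Ifitm5 in each gate of at least 50 cells, with 1 point per library and 95% counting intervals, and short black bars for the CPM in free RNA of the same library. Ifitm3 steps down across types to 28.3 CPM in Abcg2-MDS/AML chondrocytes, Ifitm2 stays within 367 to 1300.4 CPM, and Ifitm5 exceeds free RNA in osteoblasts alone among the gates drawn.

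The gradient was also present per cell. After each cell was thinned to 2000 UMIs, an Ifitm3 UMI was found in 96.3% of MSC in NHD13Tg, 94.4% in WT_A1, 73.5% in Abcg2-MDS/AML and 95.6% in Control. The median MSC carried 22.3 u in NHD13Tg, 23.8 u in WT_A1, 17.6 u in Abcg2-MDS/AML and 27.3 u in Control. Chondrocytes carried a thinned UMI in 3.49% of cells in Abcg2-MDS/AML and 3.24% in Control. Tendon cells were the most mixed. Their median was 12.9 u in NHD13Tg, 11.6 u in WT_A1, 2.69 u in Abcg2-MDS/AML and 0 u in Control, while the highest 10% of Control tendon cells still had at least 12.8 u.

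Free RNA, measured in barcodes of 1 to 100 UMIs, held Ifitm3 at 1448 CPM in NHD13Tg, 1196 CPM in WT_A1, 777 CPM in Abcg2-MDS/AML and 244 CPM in Control. Ifitm3 in osteoblasts and chondrocytes lay below these levels, as did tendon cells of Abcg2-MDS/AML. Those low values are read neither as expression nor as its absence.

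Ifitm2, a close relative of Ifitm3, was the most even of the 4. MSC held 913 CPM in NHD13Tg, 820.4 CPM in WT_A1, 851 CPM in Abcg2-MDS/AML and 775 CPM in Control. Fibroblasts held 1283, 1229, 1151 and 1024 CPM in the same libraries, and tendon cells 1300.4, 1276, 891 and 881 CPM. Osteoblasts held 468 CPM in NHD13Tg, 489.6 CPM in WT_A1 and 506 CPM in Control, and chondrocytes 377 CPM in Abcg2-MDS/AML and 367 CPM in Control. Fibroblasts were thus above MSC in all 4 libraries, opposite to Ifitm3, by 1.32-fold (Control) to 1.497-fold (WT_A1). Neighbours whose ratio had an interval that included 1 were fibroblasts and tendon cells of NHD13Tg, at 0.987-fold (0.960 to 1.01), and MSC and tendon cells of Abcg2-MDS/AML, at 0.954-fold (0.872 to 1.04). Free RNA held Ifitm2 at 931 CPM in NHD13Tg, 1014 CPM in WT_A1, 878 CPM in Abcg2-MDS/AML and 496 CPM in Control. MSC of the first 3 libraries lay slightly below it. Osteoblasts of NHD13Tg and WT_A1 and chondrocytes of both libraries compared lay further below. As for Ifitm3, these low values are read neither as expression nor as its absence. An estimate from genes of blood cells put free RNA at 75.9% of the gate in NHD13Tg osteoblasts and 0.777% in WT_A1 osteoblasts. In chondrocytes the estimate was 43.6% in Abcg2-MDS/AML and 2.20% in Control. The 75.9% and the 43.6% are too high. Such shares of free RNA would carry more Ifitm3 than these gates held, which was 232 CPM and 28.3 CPM.

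Both genes were lower in osteoblasts and chondrocytes than in the other gates compared, with a steeper fall of Ifitm3. That difference shows in the ratio of Ifitm3 to Ifitm2 UMIs within a library. The ratio is used here to set types side by side, since the capture of each transcript may differ. In MSC it was 2.56 in NHD13Tg, 3.05 in WT_A1, 2.33 in Abcg2-MDS/AML and 3.65 in Control. In osteoblasts it was 0.495 in NHD13Tg, 0.468 in WT_A1 and 0.345 in Control. In chondrocytes it was 0.0751 (0.0660 to 0.0851) in Abcg2-MDS/AML and 0.0756 (0.0659 to 0.0864) in Control. Free RNA had 0.886 in Abcg2-MDS/AML and 0.491 in Control, both above the chondrocyte ratios, and the source of the chondrocyte UMIs was not tested. As a fold, tendon cells spanned the widest range between libraries, with 1.19 in NHD13Tg, 1.01 in WT_A1, 0.641 in Abcg2-MDS/AML and 0.408 in Control.

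Ifitm5, the bone-restricted member, was found in osteoblasts at 1055 CPM (2068 UMIs) in NHD13Tg, 925 CPM (1247 UMIs) in WT_A1 and 811 CPM in Control. The next highest gate was tendon, at 22.9 CPM in NHD13Tg, 38.7 CPM in WT_A1 and 16.1 CPM in Control. Outside osteoblasts every gate compared stayed below the free RNA of its library, which held 189 CPM in NHD13Tg, 113 CPM in WT_A1, 10.3 CPM in Abcg2-MDS/AML and 25.5 CPM in Control. In thinned cells an Ifitm5 UMI was found in 77.9% of osteoblasts in NHD13Tg, against 0.578% of its MSC, which serve here as cells that should lack it. Median depths before thinning were 12884 UMIs in those osteoblasts and 4482 UMIs in those MSC, and the unthinned shares were 94.5% and 1.16%. The 8 osteoblasts of Abcg2-MDS/AML are too few to compare. The osteoblast gate held 53.4% of all Ifitm5 UMIs of NHD13Tg cells, 43.5% in WT_A1 and 72.3% in Control, from 5.64%, 3.97% and 1.72% of all UMIs of the same libraries.

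Ifitm5 was followed along the level of osteocalcin (Bglap+Bglap2), the product of mature osteoblasts. From cells under 10 u to cells of at least 400 u, NHD13Tg had 20.4, 501, 931, 1154, 956 and 1053 CPM of Ifitm5 in 6 bins divided at 10, 50, 100, 200 and 400 u. WT_A1 had 20.8, 473, 800.3, 829, 1017 and 936 CPM in the same bins, and Control had 2.41, 93.2, 134, 585, 659 and 1018 CPM. With all UMIs of each cell, Ifitm5 was thus near its highest level below the osteoblast threshold in NHD13Tg and WT_A1, but not in Control. In cells of 50 to 100 u the level was 931 CPM (854 to 1014) in NHD13Tg and 800.3 CPM (723 to 884) in WT_A1, from 55 and 70 cells. Control had 134 CPM (89.4 to 192) there, from 33 cells. These cells lie just outside the gate. Ifitm3 went the other way along the same bins, with 1745 CPM under 10 u and 206 CPM from 400 u in NHD13Tg, and 1300 CPM and 189.97 CPM in WT_A1. Control had 268 CPM and 191 CPM, a smaller difference. Osteocalcin is also the gate of the osteoblasts.

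**Figure D2:**
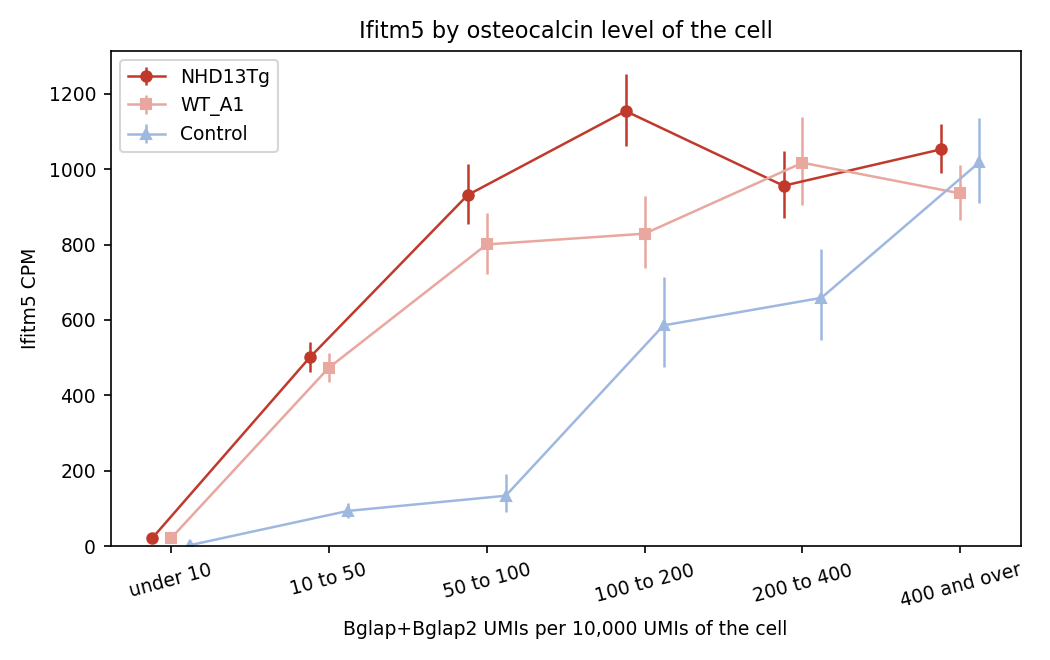
Ifitm5 CPM in cells binned by Bglap+Bglap2 UMIs per 10000 UMIs, with all UMIs of each cell, in NHD13Tg, WT_A1 and Control, with 95% counting intervals. Cells of 50 to 100 u reach 931 CPM in NHD13Tg and 800.3 CPM in WT_A1, against 134 CPM in Control.

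Osteoblast Ifitm5 did not differ by the size rule used for pairs, which takes a ratio of at least 1.5-fold whose counting interval leaves out 1, in a gene of at least 5 CPM in 1 library. NHD13Tg over WT_A1 gave a log2 ratio of 0.19 (0.09 to 0.29) in osteoblasts. No Ifitm gene passed the rule there, where 4.1% of genes tested were higher by it and 6.23% lower. Of 13 genes of bone formation listed beside it (among them Sp7, Runx2 and Col1a1), 2 were higher and 1 lower in NHD13Tg osteoblasts. In tendon cells Ifitm5 passed it in the lower direction, at log2 -0.75 (-1.06 to -0.46) in NHD13Tg over WT_A1, where 4.82% of genes did, and at -1.99 (-2.903 to -1.202) in Abcg2-MDS/AML over Control, where 20.4% did. Both rest on levels below free RNA and turned round under other gates, so no change is read from them.

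Ifitm1, a plasma membrane member, had the widest differences between libraries in MSC. MSC held 57.1 CPM (536 UMIs) in NHD13Tg and 14.4 CPM (48 UMIs) in WT_A1. They held 363 CPM (240 UMIs) in Abcg2-MDS/AML and 52.7 CPM (91 UMIs) in Control. Both model libraries were thus above their own wild type, though NHD13Tg and Control were nearly level. The log2 ratio was 1.97 (1.56 to 2.44) for NHD13Tg over WT_A1, or 3.92-fold, where 4.35% of genes tested in MSC were higher by the rule. It was 2.78 (2.43 to 3.15) for Abcg2-MDS/AML over Control, or 6.87-fold, where 9.85% were higher. Across the alternatives computed for them, the first ratio ran between 1.77 and 2.10 and the second between 2.57 and 3.53. Thinned to 2000 UMIs, 8.31% of MSC carried an Ifitm1 UMI in NHD13Tg and 2.31% in WT_A1, and 27.0% in Abcg2-MDS/AML and 9.98% in Control. Unthinned shares were 14.7% in NHD13Tg and 5.19% in WT_A1, and 33.9% in Abcg2-MDS/AML and 13.0% in Control, at median depths of 4482, 4422, 3253 and 3583 UMIs in the same libraries. Fibroblasts, where Ifitm1 was near absent, had thinned shares of 0.278% in NHD13Tg, 0.333% in WT_A1, 2.54% in Abcg2-MDS/AML and 0% in Control. The free RNA of the model libraries held more Ifitm1 too, with 18.3 CPM in NHD13Tg and 7.09 CPM in WT_A1, and 60.5 CPM in Abcg2-MDS/AML and 2.71 CPM in Control. MSC were above free RNA in each library.

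The altered makeup of the Abcg2-MDS/AML MSC gate stands beside that ratio. Its cells with an Adipoq UMI held 627 CPM of Ifitm1 (526 to 742) and those without held 236 CPM (193 to 285), both above the 54.1 CPM of Control cells with an Adipoq UMI. Among cells with an Adipoq UMI the log2 ratio was 3.53 (3.14 to 3.94). No UMI of Ptprc, Lyz2, Tyrobp, Cd52 or Cd74, markers of blood cells, was found in the Abcg2-MDS/AML gate. Mmp9, the gelatinase B gene, stood there at 204 CPM in cells with an Adipoq UMI and 137 CPM in cells without, against 6.54 CPM in Control cells with one. Mural markers summed to 269 CPM in Abcg2-MDS/AML and 152 CPM in Control, among them Myh11 at 21.2 and 1.16 CPM and Rgs5 at 39.4 and 10.4 CPM. Dmp1, an osteocyte gene, stood at 163 CPM in Abcg2-MDS/AML and 2.31 CPM in Control. The other genes of bone formation did not all follow it. Of 12 measured in these MSC, 5 were higher and 4 lower, where 9.85% of all genes were higher and 15.7% lower. Phex was among the lower, at 9.08 CPM in Abcg2-MDS/AML and 74.7 CPM in Control. The part of other cell types in the Ifitm1 ratio was not tested.

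Ifitm1 was spread differently among cells in the 2 model libraries. The MSC gate held 88.0% of all Ifitm1 UMIs of NHD13Tg cells and 37.8% of those of WT_A1, from 33.0% and 14.0% of cells. It held 22.7% in Abcg2-MDS/AML and 68.4% in Control, from 3.38% and 8.36% of cells. In Abcg2-MDS/AML 61.9% of Ifitm1 UMIs lay in cells of no gate. Part of these were the cells with at least 2 UMIs of Mmp9, a split made after the data had been seen. The 120 such cells of no gate in Abcg2-MDS/AML held 327 CPM of Ifitm1 (282 to 377) and 3064 CPM of Ifitm3, against 34.0 CPM and 492 CPM in its other cells of no gate. Control had 9 such cells, with 0 Ifitm1 UMIs and an upper limit of 108 CPM. These 9 cells held the blood marker Ptprc at 759 CPM, and Lepr and Cxcl12 at 0 CPM. The 120 cells of Abcg2-MDS/AML held Ptprc at 3.44 CPM, Lepr at 220 CPM and Cxcl12 at 850 CPM. The Control cells are thus of another kind, and no difference in Ifitm1 is read from them.

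In the remaining gates Ifitm1 was low. Fibroblasts held 0.815 CPM (9 UMIs) in NHD13Tg, 1.60 CPM (22 UMIs) in WT_A1, 20.3 CPM (60 UMIs) in Abcg2-MDS/AML and 1.23 CPM (2 UMIs) in Control. Tendon cells held 2.99, 1.82, 12.6 and 1.58 CPM in the same libraries. Abcg2-MDS/AML over Control passed the size rule in fibroblasts at 13.3-fold, in tendon cells at 7.34-fold and in chondrocytes at 11.5-fold (56 and 4 UMIs), where 9.71%, 15% and 7.28% of genes were higher. All 3 levels in Abcg2-MDS/AML lay below the 60.5 CPM of its free RNA. Subtracting free RNA as estimated from blood genes left 0 counts in Abcg2-MDS/AML and so no ratio to read, while the estimate without Lcn2, chosen after seeing the data, left log2 ratios of 3.30 in fibroblasts, 2.59 in tendon cells and 3.62 in chondrocytes. The share of free RNA in these gates of Abcg2-MDS/AML was put at 40.4%, 38.0% and 43.6% by the first estimate and at 12.3%, 4.72% and 0.291% by the second. In chondrocytes the first estimate is too high, since such a share of free RNA would carry more Ifitm3 than the 28.3 CPM that gate held. The part of free RNA in these 3 ratios was not tested.

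Ifitm3 was lower in MSC of both models, but by less than 1.5-fold. The log2 ratio was -0.10 (-0.13 to -0.06) for NHD13Tg over WT_A1 and -0.51 (-0.60 to -0.42) for Abcg2-MDS/AML over Control. Within the Abcg2-MDS/AML gate, cells with an Adipoq UMI held 2986 CPM and cells without held 1500.1 CPM, and among cells with one the ratio to Control was 0.06 (-0.06 to 0.18). In fibroblasts the ratio was 0.33 in NHD13Tg and 0.25 in Abcg2-MDS/AML, and in NHD13Tg tendon cells 0.27. Tendon cells of Abcg2-MDS/AML alone passed the rule, at 0.67 (0.56 to 0.77) or 1.59-fold. Ifitm3 had a thinned UMI in 47.5% of those cells, against 32.6% in Control, at median depths of 3383 and 4354 UMIs. The ratio was 0.98 in cells of exactly 1 gate, and fell short of the rule with thresholds doubled (0.39) and with cells weighted equally (0.40). The level of Abcg2-MDS/AML tendon cells lay below its free RNA. MSC markers summed to 598 CPM in Abcg2-MDS/AML tendon cells and 371 CPM in Control, and fibroblast markers to 1898 and 1682 CPM, and the part of such cells in the ratio was not tested.

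Ifitm2 did not pass the rule in any gate of either pair. Its log2 ratios ran between -0.07 in NHD13Tg osteoblasts and 0.17 in Abcg2-MDS/AML fibroblasts, and in MSC they were 0.15 (0.09 to 0.22) for NHD13Tg and 0.14 (-0.01 to 0.28) for Abcg2-MDS/AML.

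**Figure D3:**
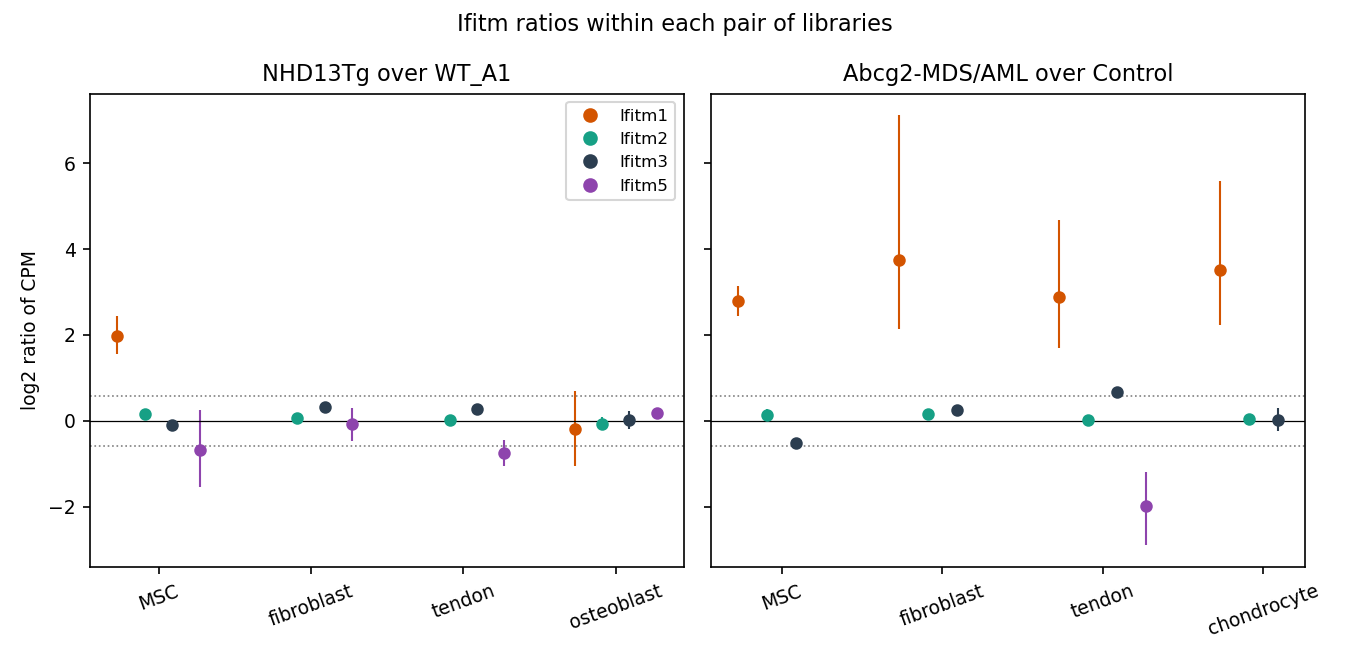
Log2 ratios of CPM within each pair by gate, with 95% counting intervals and dotted lines at 1.5-fold, for Ifitm genes of at least 5 CPM in 1 library. Ifitm1 stands at 1.97 and 2.78 in MSC, while Ifitm2 lies between -0.07 and 0.17 in all gates drawn.

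Interferon-inducible genes, to which Ifitm1, Ifitm2 and Ifitm3 are usually counted, were set beside them as a list of 57 genes without the Ifitm genes. The list was written with the earlier finding known that such genes are low in MSC of both models, so its direction there is no independent evidence. In MSC 34 of 48 members measured were lower in NHD13Tg than in WT_A1 and 0 were higher, where 9.6% of all genes tested were lower. Their median log2 ratio was -1.03, against -0.07 over all genes tested. In Abcg2-MDS/AML over Control 38 of 50 were lower and 0 higher, where 15.7% of all genes were lower, with a median of -1.72 against -0.11. Among cells with an Adipoq UMI, a split made after the data had been seen, 26 were lower and 1 higher in Abcg2-MDS/AML, and 34 lower and 0 higher in NHD13Tg. For this split, with 58 cells in Abcg2-MDS/AML, the members measured and the share over all genes were not computed. Its counts therefore have no background beside them. In the whole MSC gates Ifitm1 was thus higher where most of the list was lower, and Ifitm2 and Ifitm3 stayed within 1.5-fold. Iigp1, an immunity-related GTPase, stood at 170 CPM in NHD13Tg and 885 CPM in WT_A1, 5.20-fold lower. It stood at 266 CPM in Abcg2-MDS/AML and 2060.3 CPM in Control, 7.71-fold lower. Cxcl10, a T cell chemokine, was 4.55-fold and 4.77-fold lower in the 2 models. Cxcl9, its relative, was 2.71-fold and 2.41-fold lower, and Irf1, a transcription factor of the interferon gamma response, 2.19-fold and 3.56-fold.

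Genes of interferon reception and signalling were set beside that list, with which they share some members. Of 14 measured in MSC, 6 were lower and 1 higher in NHD13Tg, and 7 were lower and 0 higher in Abcg2-MDS/AML. Of all genes tested in MSC, 9.6% were lower and 4.35% higher in NHD13Tg, and 15.7% lower and 9.85% higher in Abcg2-MDS/AML. The receptor gene Ifngr2 was higher in NHD13Tg, at 149 CPM against 94.7 CPM in WT_A1. Other groups of genes also differed between these MSC gates. Neutrophil markers summed to 584 CPM in NHD13Tg and 2077 CPM in WT_A1, with 6 of 6 genes detected in each, and to 53.0 CPM in Abcg2-MDS/AML, with 5 of 6 at 0, and 630.2 CPM in Control. Genes of the dissociation response summed to 18691 CPM in NHD13Tg and 22085 CPM in WT_A1, and to 15164 CPM in Abcg2-MDS/AML and 24540.2 CPM in Control. Their part in the Ifitm and interferon values was not tested.

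In fibroblasts and tendon cells more members of the list were higher than lower in both models. In fibroblasts 10 of 42 members were higher and 0 lower in NHD13Tg, where 2.06% of all genes were higher and 3.94% lower. In Abcg2-MDS/AML 15 of 44 were higher and 7 lower, where 9.71% of all genes were higher and 23.6% lower. In tendon cells 7 of 40 were higher and 2 lower in NHD13Tg, where 2.9% of all genes were higher and 4.82% lower. In Abcg2-MDS/AML tendon cells 11 of 34 were higher and 2 lower, where 15% of all genes were higher and 20.4% lower. Chondrocytes of Abcg2-MDS/AML had 5 of 24 higher and 7 lower, where 7.28% of all genes were higher and 36.3% lower. Osteoblasts of NHD13Tg had 0 of 28 higher and 3 lower, where 4.1% of all genes were higher and 6.23% lower. The median list ratio was 0.36 in NHD13Tg fibroblasts and 0.24 in NHD13Tg tendon cells, close to the 0.33 and 0.27 of Ifitm3 there. In Abcg2-MDS/AML the list medians were 0.32 in fibroblasts and 0.29 in tendon cells. Ifitm3 had 0.25 and 0.67 there, so its tendon ratio was well above the list median. Many of the list members stood under 20 CPM. With a minimum of 20 CPM the higher members fell to 3 in NHD13Tg fibroblasts and 1 in NHD13Tg tendon cells.

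**Figure D4:**
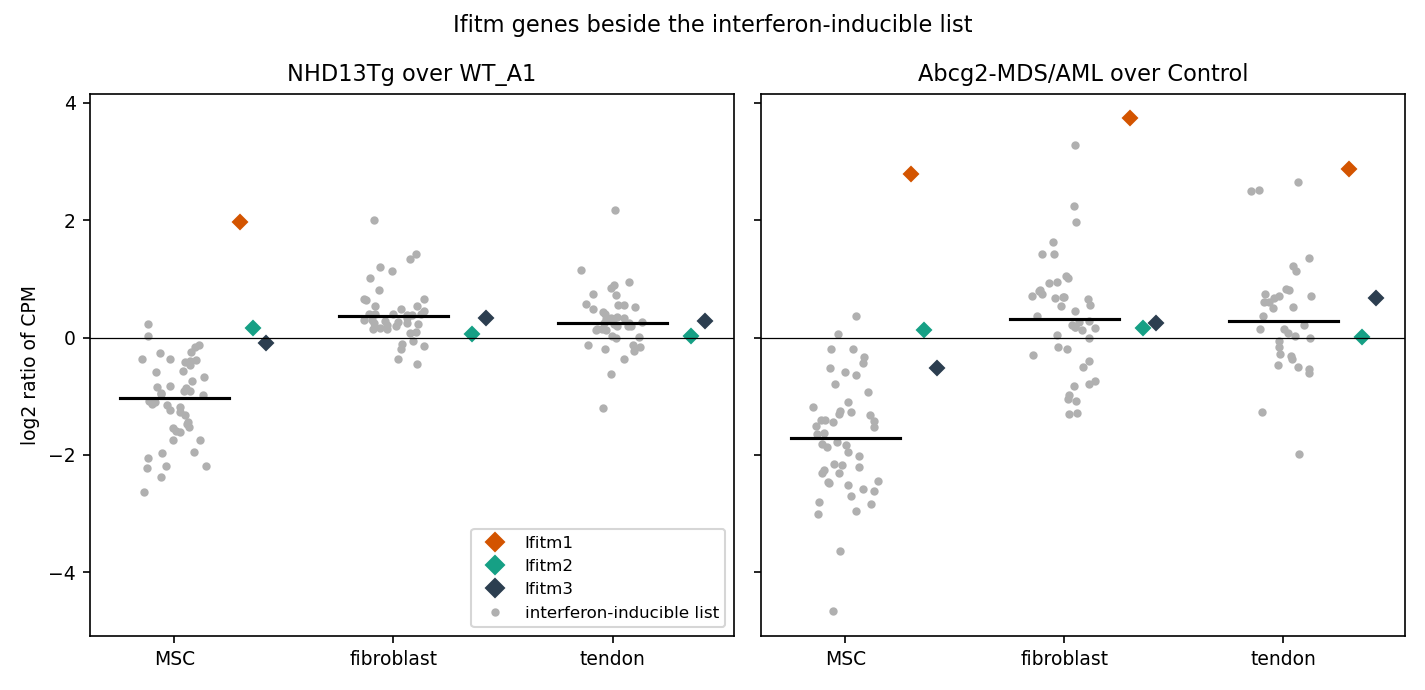
Log2 ratios of CPM within each pair for the interferon-inducible list (grey points, black line at the median) and for Ifitm1, Ifitm2 and Ifitm3 (diamonds) in MSC, fibroblasts and tendon cells. The MSC median is -1.03 in NHD13Tg and -1.72 in Abcg2-MDS/AML while Ifitm1 stands at 1.97 and 2.78, and Ifitm1 in fibroblasts and tendon cells of Abcg2-MDS/AML is below free RNA.

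Ifitm3 was also read in single cells against 10 interferon-inducible genes (Ifit1, Ifit3, Isg15, Iigp1, Igtp, Irgm1, Rtp4, Gbp2, Gbp3 and Ifi47), after thinning to 2000 UMIs. At least 2 such UMIs were found in 15.1% of MSC in NHD13Tg and 52.3% in WT_A1, and in 17.99% in Abcg2-MDS/AML and 74.2% in Control. The share was between 1.54% and 6.29% in fibroblasts and tendon cells of the 4 libraries. MSC with at least 2 carried 5.87 Ifitm3 UMIs in NHD13Tg, 5.73 in WT_A1, 6.74 in Abcg2-MDS/AML and 6.53 in Control. MSC with 0 carried 4.46 in NHD13Tg, 4.16 in WT_A1, 2.73 in Abcg2-MDS/AML and 3.74 in Control. Cells with interferon-inducible UMIs thus held more Ifitm3 in each library, by 1.32-fold (1.25 to 1.39) in NHD13Tg, 1.38-fold (1.27 to 1.498) in WT_A1, 2.47-fold (2.08 to 2.93) in Abcg2-MDS/AML and 1.75-fold (1.52 to 2.02) in Control. Even MSC with 0 such UMIs held Ifitm3 at several UMIs per cell.

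The same split in tendon cells gave 2.08-fold in NHD13Tg, 1.76-fold in WT_A1, 4.16-fold (3.34 to 5.14) in Abcg2-MDS/AML and 4.401-fold (3.01 to 6.24) in Control. Chondrocytes, where Ifitm3 was lowest, carried 0.692 UMIs in 13 cells with at least 2 and 0.0386 in cells with 0 in Abcg2-MDS/AML, or 17.95-fold (7.498 to 38.8). In Control 16 cells carried 0.75 UMIs, against 0.0389, or 19.3-fold (9.18 to 37.7). Ifitm2 showed smaller steps, with 0.964-fold (0.873 to 1.06) in NHD13Tg MSC, 1.04-fold (0.904 to 1.19) in WT_A1 MSC and 0.725-fold (0.330 to 1.38) in Control chondrocytes, although Abcg2-MDS/AML MSC had 1.49-fold (1.13 to 1.95) and Control MSC 1.33-fold (1.02 to 1.74). Tendon cells had Ifitm2 steps of 1.56-fold (1.196 to 2.003) in Abcg2-MDS/AML and 1.64-fold (1.11 to 2.34) in Control. For Ifitm1 in MSC the intervals of the step included 1, with 0.973-fold (0.523 to 1.71) in Abcg2-MDS/AML and 1.11-fold (0.741 to 1.62) in NHD13Tg. In Abcg2-MDS/AML the order was not graded, since the 31 MSC with exactly 1 interferon-inducible UMI carried 1.87 Ifitm1 UMIs per cell, against 0.471 in those with at least 2 and 0.484 in those with 0. Its chondrocytes had an Ifitm1 step of 17.95-fold (3.18 to 69.7), from 3 UMIs in 13 cells. Cells that pass the split may hold more than 1 cell type or free RNA, which was not tested.

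**Figure D5:**
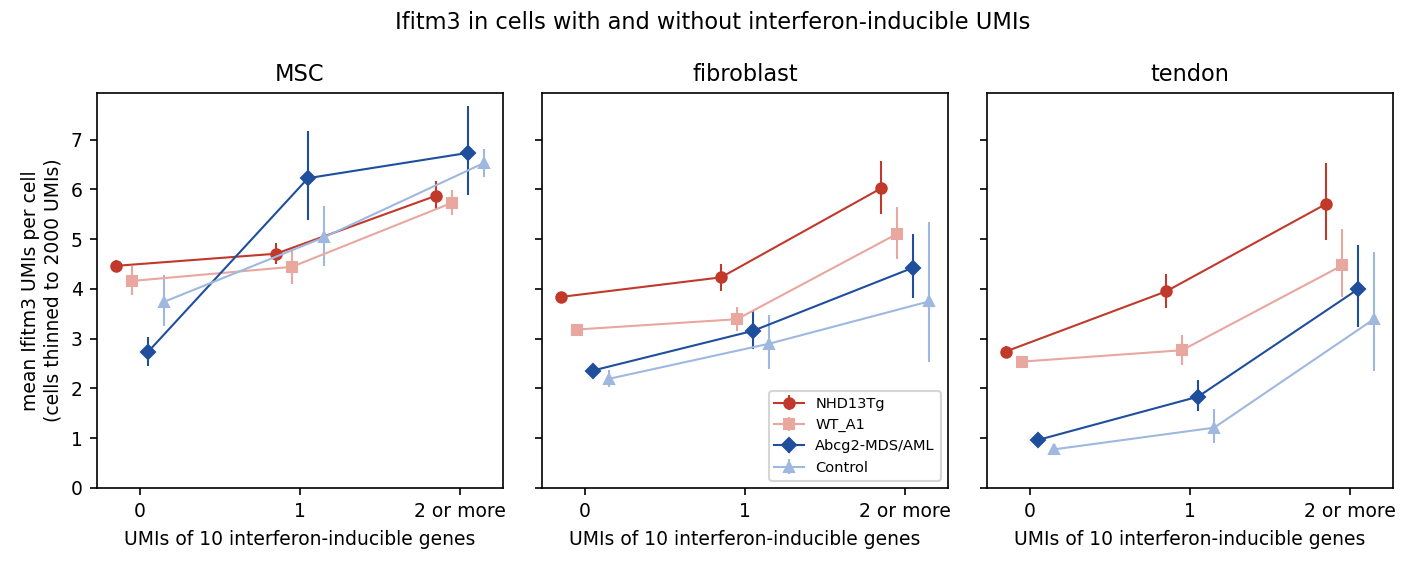
Mean Ifitm3 UMIs per cell thinned to 2000 UMIs, with 95% counting intervals, in cells with 0, 1 and at least 2 UMIs of 10 interferon-inducible genes. In MSC with at least 2 the 4 libraries lie between 5.73 and 6.74, and in MSC with 0 between 2.73 and 4.46.

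Proteins known to work with IFITM proteins in human or mouse cells were listed without regard to their change. Fkbp11, a prolyl isomerase that binds IFITM5 in osteoblasts, stood in osteoblasts at 607 CPM in NHD13Tg, 536 CPM in WT_A1 and 315 CPM in Control. In MSC, fibroblasts and tendon cells it stayed between 12.1 and 54.6 CPM, so it shared the osteoblast peak of Ifitm5. Cd9, Cd81 and Ptgfrn, membrane proteins found with IFITM5 and FKBP11, had no such peak, with 764 CPM of Cd9 in NHD13Tg osteoblasts against 1983 CPM in its fibroblasts. Zdhhc20 (a palmitoyltransferase of IFITM3), Nedd4 (its ubiquitin ligase), Vapa (an endoplasmic reticulum contact protein that binds it) and Zmpste24 (a protease that acts with it) varied less than 3-fold across MSC, fibroblasts, tendon cells and osteoblasts within NHD13Tg, WT_A1 and Control. In MSC 0 of the 8 genes passed the rule in NHD13Tg, while in Abcg2-MDS/AML Cd9 (1.96-fold) and Zdhhc20 (1.68-fold) were higher and Fkbp11 (3.76-fold) and Cd81 (1.68-fold) lower, where 9.85% of all genes were higher and 15.7% lower.

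Over 20 sums of 5 types in 4 libraries, which share libraries and some cells, the genes most like each member were ranked by Pearson r of log2(CPM + 10) among 5201 genes, with no p. Ifitm5 was most like Col13a1 (r = 0.991), a transmembrane collagen gene, then Mlip (0.983), Insc (0.980) and Col22a1 (0.979). Ifitm3 was most like Serping1 (0.966), the C1 inhibitor, Ebf1 (0.965), a transcription factor of marrow stroma, Fstl1 (0.9497) and Tmsb4x (0.947). Ifitm2 was most like Add3 (0.961), Pdlim1 (0.945), Sptbn1 (0.944) and C1qtnf7 (0.942), of which the first 3 encode cytoskeletal proteins. Ifitm1 had its nearest genes farther off, with Cyyr1 (0.865), Msc (0.852), Tusc5 (0.848) and Cbfa2t3 (0.847). Within the family Ifitm2 and Ifitm3 were the closest pair (0.763), Ifitm1 and Ifitm3 had 0.366, and Ifitm5 and Ifitm2 had -0.255. Over the 17 sums of at least 50 cells, 2 of the 4 genes named for Ifitm1, 2 for Ifitm2, 3 for Ifitm3 and 4 for Ifitm5 were among the first 8, and by Spearman rank 0, 1, 3 and 3 of them, so the genes named for Ifitm1 and Ifitm2 depend on the measure.

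Cells near the gate thresholds show how far levels turn on them. In cells of 5 to under 10 u of the MSC markers, just outside the gate, Ifitm3 stood at 1782 CPM in NHD13Tg, 1459 CPM in WT_A1, 1371 CPM in Abcg2-MDS/AML and 381 CPM in Control. In cells of 10 to under 15 u, just inside, Ifitm3 stood at 2105, 1960.4, 1417 and 1305 CPM in the same libraries. For Ifitm1 in Abcg2-MDS/AML the values were 149.5 CPM outside and 291 CPM inside, against 2.58 CPM outside and 11.5 CPM inside in Control. The remaining Ifitm genes in the matrices were scarce in stroma. Ifitm6, the neutrophil member, was at most 6.63 CPM in the compared gates but reached 1259 CPM in 18 neutrophil-like barcodes of NHD13Tg and 694 CPM in 10 of WT_A1, while in the compared gates Ifitm10 was at most 26.4 CPM (Abcg2-MDS/AML chondrocytes) and Ifitm7 at most 0.339 CPM.

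Reads of related genes can be confused. In the last 400 bases of the transcripts, which 3′ chemistry reads, 12.3% of 50-base windows of Ifitm3 recur exactly in other genes' transcripts, among them Ifitm1 and the pseudogene Gm7676, as do 1.99% of those of Ifitm1 with Gm7676. Ifitm2 shares 25.4% of windows with the readthrough gene Gm45717 and 5 further Gm genes, and Ifitm5 shares 24.8% with Gm45717, which overlaps both on the same strand and is not among the genes of the matrices. How such reads were assigned is not stated in the labels.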

How the data were processed

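Single-cell libraries of sorted CD45- TER119- CD31- CD140a+ CD51+ stroma were made with 3′ v3.1 chemistry, per the labels' protocols. The submitters' processing notes name Cell Ranger 3.1.0 and Seurat 3.2.3, and the genome build is not given in the sources used here. The deposited values are raw UMI counts per gene and barcode, unfiltered and not normalized. Matrices held 36133716 to 46033790 UMIs.

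Cells and gates were chosen with the thresholds given with the results. Counts were summed per gate and library and divided by the summed UMIs. No doublet caller was run, so doublets remain. Gates were applied singly, so 1 cell can enter several. Poisson (CPM), Clopper-Pearson (shares) and conditional binomial (ratios, with 0.5 counts added for the log2 value) intervals cover counting error only. UMIs are not divided by length, so levels are compared between types and not between genes. With 1 library per group no test of condition was possible. The ratio calculation was tested on simulated data. Genes most like a member had to reach 50 CPM in 1 sum. The members, gates and gene lists were chosen with earlier results of these data known. The genes named are the 4 members, the other Ifitm genes, the partner list, up to 4 genes most like each member, and up to 4 interferon-inducible genes per direction with the highest CPM among those past the size rule in MSC. Ifngr2, Dmp1, Phex, Myh11, Rgs5 and the Mmp9 cells were singled out after their values were seen. Tools were Python 3.11.15, numpy 2.4.6, pandas 2.3.3, scipy 1.17.1 and matplotlib 3.10.9.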

Additional observations from a re-analysis of the deposited data

How the results depend on the processing

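No paired analysis was possible because each group is 1 library. Of 344 log2 ratios recomputed under other settings, 325 kept their side of the size rule, and those past it kept their direction. Ratios short of the rule could change sign. Ifitm3 in Abcg2-MDS/AML MSC, at -0.51, was 0.06 among cells with an Adipoq UMI. Ifitm1 in MSC passed the rule under each setting computed, at 1.77 to 2.10 and 2.57 to 3.53. For the ratios that changed side or direction the cause was not tested. Ifitm5 in fibroblasts of NHD13Tg (-0.08) became 0.70 with a minimum of 4000 UMIs, 2.51 with free RNA subtracted without Lcn2, -0.77 without the deepest cells and -1.47 as a mean over cells. Ifitm5 in tendon cells became 0.88 with thresholds doubled (NHD13Tg) and 0.082 in cells of exactly 1 gate (Abcg2-MDS/AML), and in NHD13Tg MSC -1.55 as a mean over cells. Of 588 levels, 176 left their counting interval and 56 moved by over 1.5 times, 17 of them with free RNA subtracted and 13 with thresholds doubled. Of 24 Ifitm5 levels by osteocalcin bin, 19 left their interval with bins on thinned cells. So did 101 of 136 shares of cells with a UMI, taken unthinned or thinned to 1000 UMIs. The negative ratios that follow set 0 remaining counts in Abcg2-MDS/AML against Control, so their size cannot be read. With free RNA subtracted, Ifitm1 in Abcg2-MDS/AML became -2.41 in fibroblasts, -3.18 in tendon cells and -2.34 in chondrocytes, Ifitm2 and Ifitm3 in chondrocytes -11.89 and -7.90, and Ifitm3 0.60 in fibroblasts and 0.30 in tendon cells. Without Lcn2 in that estimate each of these ratios kept the direction and side of the rule it had without subtraction, and Ifitm3 in MSC was -0.67. Ifitm3 in Abcg2-MDS/AML tendon cells was 0.39 with thresholds doubled and 0.40 as a mean over cells, in chondrocytes 0.87 in cells of exactly 1 gate, and Ifitm1 in chondrocytes was 3.46 with thresholds doubled. Interferon list members at a minimum of 20 CPM numbered 3 higher in NHD13Tg fibroblasts, 1 higher and 1 lower in NHD13Tg tendon cells, 1 lower in Abcg2-MDS/AML tendon cells, and 2 higher and 3 lower in chondrocytes. With no minimum, chondrocytes had 8 higher and 11 lower. In cells of exactly 1 gate, 1 was lower in NHD13Tg fibroblasts and 1 in Abcg2-MDS/AML tendon cells. With median-ratio scaling, 1 was lower in NHD13Tg tendon cells and 1 higher in NHD13Tg osteoblasts. In Abcg2-MDS/AML MSC with an Adipoq UMI, 1 was higher. The Adipoq, highest-cell, Lcn2 and 17-sum settings were chosen after seeing the data. Free RNA was not subtracted in MSC and osteoblasts of the NHD13Tg pair, because blood genes put its share of the gate at 64.6% in NHD13Tg MSC, 75.9% in NHD13Tg osteoblasts and 94.8% in WT_A1 MSC. Median-ratio scaling shifted the median gene by -0.15 in Abcg2-MDS/AML fibroblasts and -0.22 in its chondrocytes.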
